A study of Homo sapiens with 30 samples.

Results

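Sibjeondaebo-tang and Palmul-tang are related herbal formulas of Korean medicine, and traditionally Sibjeondaebo-tang is Palmul-tang with Astragalus root and cinnamon bark added. Their ethanol extracts were compared here at a matched dose of 100 µg/mL, called medium, in HepG2 cells, an established human hepatocellular carcinoma line, after 24 h. The comparison used 6 of the 30 RNA sequencing libraries of the series, 3 treated with Sibjeondaebo-tang and 3 with Palmul-tang, identified by their formula and dose labels. The sample names of both groups carried the same prefix. For context, both formulas were also read at 20 µg/mL (low) and 500 µg/mL (high), with 3 libraries per dose, beside 3 vehicle (DMSO) libraries. The estimate of spread in the gene tests also drew on libraries of another formula, Samul-tang, at 20, 100 and 500 µg/mL. The titles place vehicle and both formulas in one batch, E, while the vehicle sample names carry another prefix, whose meaning is not given. If that prefix marks a separate set, a difference from vehicle and one between sets cannot be told apart. Vehicle is 0.1% DMSO by the sample labels, and the series text gives another percentage. Whether the replicates came from separate cultures is not stated, so every p-value here speaks for the spread among these libraries, possibly technical spread only.

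Few genes passed the threshold in this comparison, which small differences can miss, and 3 of the 5 that did belong to the response to low oxygen. In that response the hypoxia-inducible factors, heterodimers of an oxygen-regulated alpha subunit such as HIF1A or EPAS1 with ARNT, bind short DNA elements near their target genes. With oxygen present, the EGLN prolyl hydroxylases mark the alpha subunit and VHL directs its destruction. When it accumulates, cells raise glucose uptake and glycolysis, divert pyruvate from mitochondria, secrete angiogenic factors and remove mitochondria by autophagy. In hepatocytes and hepatoma cells the same programme includes erythropoietin and lipid droplet proteins.

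Levels are library-size-normalised counts (CPM) scaled with TMM factors, and fold changes are Sibjeondaebo-tang over Palmul-tang on the log2 scale ± SE. A gene was called when the adjusted p of edgeR's quasi-likelihood test was under 0.05. The 6 libraries held between 25842354 and 31412598 expected counts. All 10 hepatocyte markers were detected, with summed levels of 41741 to 43093 CPM in Sibjeondaebo-tang and 40433 to 40910 CPM in Palmul-tang libraries. The fibroblast genes DCN, LUM, THY1 and FAP and the leukocyte gene PTPRC were at 0 in every one of the 6. COL1A2 and COL6A3 were at 0 throughout Sibjeondaebo-tang only, and COL1A1, COL3A1, PDGFRB and SPARC were detected in both groups. The 10 fibroblast markers summed to 80.4 to 88.2 CPM in Sibjeondaebo-tang and 78.2 to 88.8 CPM in Palmul-tang libraries. The 8 markers of other epithelial lines summed to 290 to 301 CPM in Sibjeondaebo-tang and 288 to 308 CPM in Palmul-tang. The 7 endothelial markers summed to 3.23 to 3.59 CPM in Sibjeondaebo-tang and 3.15 to 3.51 CPM in Palmul-tang, and the 8 blood and immune markers, mostly LYZ, to 1478 to 1631 CPM in Sibjeondaebo-tang and 1451 to 1706 CPM in Palmul-tang. Fewer cells of one kind and less RNA per cell cannot be told apart in such bulk libraries.

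Of 16083 genes tested, 5 were called between Sibjeondaebo-tang and Palmul-tang at 100 µg/mL, which is 0.0311% of the genes tested. All 5 were lower with Sibjeondaebo-tang and none was higher. At an unadjusted p under 0.05 there were 1015 genes (6.31%), 571 of them lower (3.55% of those tested) and 444 higher (2.76%). The called genes were PDK1, BHLHE40, TMCC1, PFKFB4 and PLIN2. PDK1, BHLHE40 and PFKFB4 stand in the lists of hypoxia-type genes used here, where 3 of 81 tested members were thus lower and 0 higher.

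The hypoxia response element has a core of 5 letters, ACGTG or GCGTG, on either strand. It was searched in the 250 bases before each RefSeq transcript start (GRCh38.p14), with overlapping matches counted as 1 site. The stretches of 30 bases around the matches of 4 called genes are printed to show what such sites look like there, written 5′ to 3′ on the strand of the gene with each match in capitals. CACGT and CACGC are the same core read from the other strand.
PDK1 (plus strand, chr2:172556060-172556089): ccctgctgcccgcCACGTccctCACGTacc
BHLHE40, first site (plus strand, chr3:4979187-4979216): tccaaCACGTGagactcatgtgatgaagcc
BHLHE40, second site (plus strand, chr3:4979255-4979284): gtggccagACGTGcctggagtcacagggta
BHLHE40, last site (plus strand, chr3:4979280-4979309): gggtagaaCACGTagctccaacccacccac
PFKFB4 (minus strand, chr3:48556948-48556977): ttgggcatGCGTGgtcggaggccgggcccc
PLIN2, first site (minus strand, chr9:19127591-19127620): gcgccgggACGTGcccgagggtgacactcg
PLIN2, other sites (minus strand, chr9:19127556-19127585): gggacaggGCGTGctgccgcgggtCACGTG

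PDK1 held 2 sites in the window shown, the one of its 2 windows with the most matches. Its other window (chr2:172555123-172555372), directly before the gene start given below, held 0. BHLHE40 held 3, PFKFB4 held 1 and PLIN2 held 3. In GENCODE 29 the PDK1 and BHLHE40 sites and the second PLIN2 stretch overlap an annotated exon of the gene. PDK1, BHLHE40, PFKFB4 and PLIN2 each have an annotated gene start further upstream than the RefSeq start of the window shown. By the gene positions given below, all the sites shown thus lie inside their genes. TMCC1 held 4 sites in one of its 4 windows. The core is common. It was found in 43.2% of 35116 windows of 27305 genes, and in 71.0% of the 107 windows of the 68 hypoxia-type genes that matched the table. The share with 2 or more sites was 16.2% of all windows and 39.3% of the hypoxia-type windows. A match describes letters only, and binding was not measured.

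PDK1 (chr2:172555373-172608669) encodes the mitochondrial kinase that switches off pyruvate dehydrogenase and so keeps pyruvate out of the citric acid cycle. It stood at 52.3, 48.0 and 48.1 CPM in the Sibjeondaebo-tang libraries and at 65.8, 63.3 and 63.8 CPM in the Palmul-tang libraries. Every Sibjeondaebo-tang library lay below every Palmul-tang library. The log2 fold change was −0.38 ± 0.0510 (adjusted p = 0.000415), a level 23.0% lower.

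BHLHE40 (chr3:4979116-4985323), a transcriptional repressor that responds to hypoxia and to the circadian clock, differed most among the called genes. Its levels were 68.5, 58.0 and 61.9 CPM in Sibjeondaebo-tang and 85.4, 84.6 and 95.6 CPM in Palmul-tang. The groups did not overlap, and the third Palmul-tang library stood above the other two of its group. The log2 fold change was −0.49 ± 0.0681 (adjusted p = 0.000415), a level 29.04% lower.

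PFKFB4 (chr3:48517684-48562015) makes and breaks down the sugar phosphate that activates phosphofructokinase. It had 34.3, 25.3 and 27.3 CPM in Sibjeondaebo-tang and 39.96, 38.8 and 39.0 CPM in Palmul-tang. The first Sibjeondaebo-tang library lay well above the other two of its group, and the groups still did not overlap. The log2 fold change was −0.43 ± 0.0756 (adjusted p = 0.00938).

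PLIN2 (chr9:19108375-19149290) coats lipid droplets, and TMCC1 (chr3:129647792-129893606) encodes a membrane protein of the endoplasmic reticulum. Neither is in the hypoxia lists, and PLIN2 was listed with fatty acid and triglyceride synthesis. PLIN2 had 306, 266 and 265 CPM in Sibjeondaebo-tang and 356, 322 and 346 CPM in Palmul-tang, a log2 fold change of −0.29 ± 0.0509 (adjusted p = 0.00938). TMCC1 had 69.7, 61.6 and 59.4 CPM in Sibjeondaebo-tang and 87.0, 78.4 and 86.3 CPM in Palmul-tang, a log2 fold change of −0.40 ± 0.0632 (adjusted p = 0.00278). In both genes the first Sibjeondaebo-tang library was the highest of its group and still below every Palmul-tang library.

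**Figure D1:**
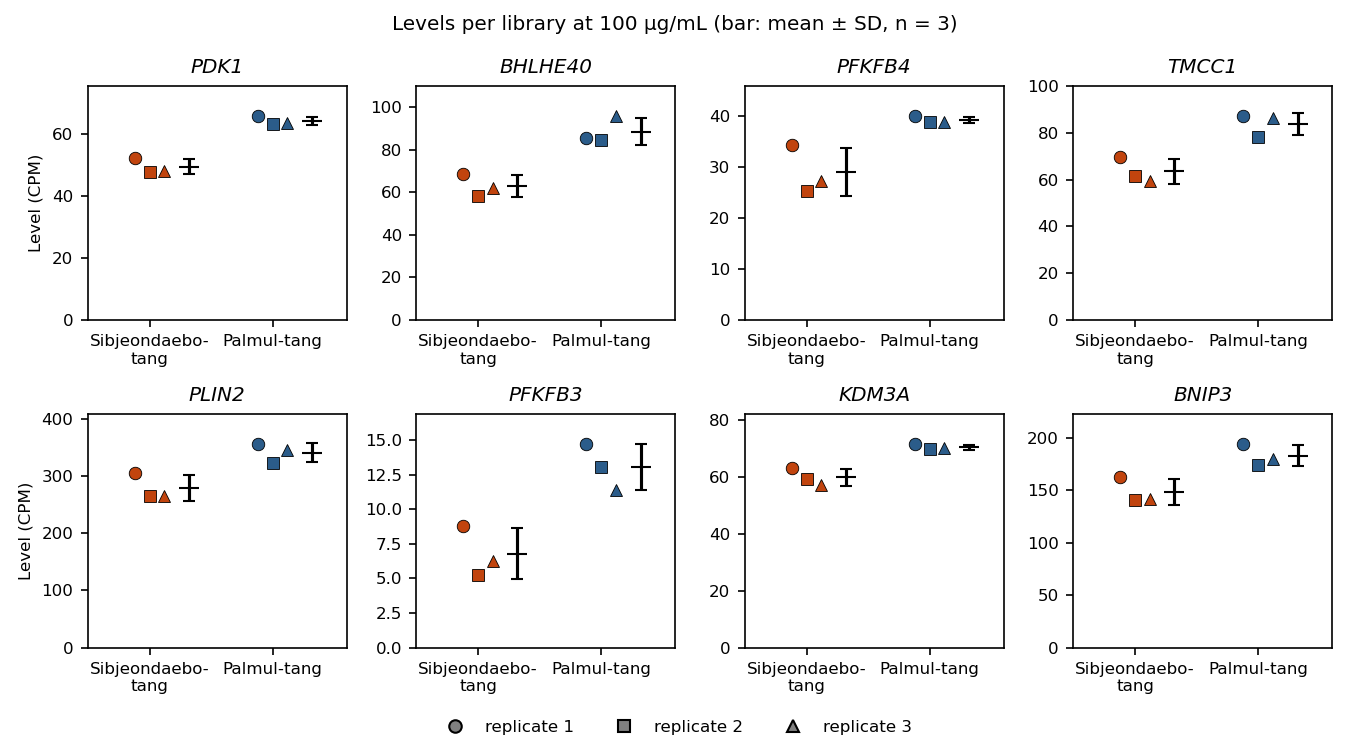
Levels in CPM (vertical axes, from 0) of the 5 called genes and of PFKFB3, KDM3A and BNIP3 in the 3 Sibjeondaebo-tang and 3 Palmul-tang libraries at 100 µg/mL; symbols mark replicates and bars the mean ± SD. No Sibjeondaebo-tang library reaches the lowest Palmul-tang library for any of the 8 genes, and replicate 1 is the highest Sibjeondaebo-tang library in each.

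PDK1 and BHLHE40 were called under each of the 14 alternatives tried. PFKFB4 and PLIN2 lost the call when the 6 libraries were fitted alone (adjusted p = 0.372 and 0.173) and without any 1 of Palmul-tang replicate 1, Palmul-tang replicate 3, Sibjeondaebo-tang replicate 2 or Sibjeondaebo-tang replicate 3 (0.0709 to 0.2505), and TMCC1 lost it without Palmul-tang replicate 1, Sibjeondaebo-tang replicate 2 or Sibjeondaebo-tang replicate 3 (0.0696 to 0.105). The count of 5 itself was 30 without Sibjeondaebo-tang replicate 1, 2 without Palmul-tang replicate 1, Sibjeondaebo-tang replicate 2 or Sibjeondaebo-tang replicate 3, 3 without Palmul-tang replicate 3, and 26 with DESeq2. Genes that missed the threshold also gained a call under some of the 14 alternatives. KDM3A did so in 8, BNIP3 in 6, PFKFB3, ANKZF1, DDIT4 and SLC2A3 in 5 each, NDRG1 in 4, MIR210HG in 3 and VEGFA in 1.

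The hypoxia-type genes were read as 5 lists with 83 symbols, of which COX4I2 and BHLHE41 fell below the filter on low counts. Of the 81 tested, 72 had a fold change below 0 and 9 above, where 50.1% of all tested genes were below 0. Their median log2 fold change was −0.17, against −0.00044 over all tested genes. At an unadjusted p under 0.05, 46 members were lower and 2 higher, beside the 3.55% and 2.76% of all genes. In 33 members every Sibjeondaebo-tang library lay below every Palmul-tang library, and in 1 every one lay above. Over all tested genes those shares were 6.09% and 5.67%. Beyond the 3 called, no member passed the adjusted threshold.

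Among the 10 regulators of the pathway, none was called, and 6 were below 0. HIF1A, the main oxygen-regulated subunit, had 272, 298 and 306 CPM in Sibjeondaebo-tang and 246, 266 and 279 CPM in Palmul-tang (log2 0.15 ± 0.0536, adjusted p = 0.693). Its partner ARNT had 39.2, 39.9 and 41.1 CPM in Sibjeondaebo-tang and 35.8, 36.8 and 36.2 CPM in Palmul-tang (0.14 ± 0.0487, adjusted p = 0.604). ARNT was the 1 member whose groups separated with Sibjeondaebo-tang above, while HIF1A overlapped. EGLN1, the oxygen-sensing hydroxylase and itself a hypoxia target, had 59.2, 59.1 and 59.1 CPM in Sibjeondaebo-tang and 66.0, 68.3 and 65.9 CPM in Palmul-tang (−0.17 ± 0.0626, adjusted p = 0.674). EPAS1, the other main alpha subunit, was at 231 to 240 CPM in Sibjeondaebo-tang and 227 to 239 CPM in Palmul-tang.

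All 24 genes of glucose uptake and glycolysis had a fold change below 0, with a median of −0.17. PDK1 and PFKFB4 were called, and 18 had an unadjusted p under 0.05. PFKFB3, which like PFKFB4 drives phosphofructokinase, had the lowest fold change of the 81, at −0.93 ± 0.186 (adjusted p = 0.0932). It was called with DESeq2 (adjusted p = 0.000263), with the replicate block (7.46e-05) and without Sibjeondaebo-tang replicate 1 (0.00538), and not with the 6 libraries alone (0.446) or without Sibjeondaebo-tang replicate 3 (0.835). Its levels were 8.82, 5.27 and 6.27 CPM in Sibjeondaebo-tang and 14.7, 13.1 and 11.4 CPM in Palmul-tang. The groups were apart, at low levels and with a wide spread within each.

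SLC2A3, a glucose transporter, had 172, 147 and 142 CPM in Sibjeondaebo-tang and 198, 194 and 180 CPM in Palmul-tang (−0.31 ± 0.0744, adjusted p = 0.196). Hexokinase HK2, which traps glucose in the cell, had 134, 117 and 112 CPM in Sibjeondaebo-tang and 150, 146 and 141 CPM in Palmul-tang (−0.27 ± 0.0691, adjusted p = 0.291). In SLC2A3, HK2 and the lactate exporter SLC16A3 the groups did not overlap. In PGK1, ENO1, TPI1 and PGAM1, enzymes of glycolysis, they did, with fold changes of −0.20, −0.18, −0.16 and −0.12. LDHA, which makes lactate, had 1815, 1584 and 1614 CPM in Sibjeondaebo-tang and 1762, 1740 and 1763 CPM in Palmul-tang, so its first Sibjeondaebo-tang library was the highest of the 6. GAPDH overlapped entirely, at 2950 to 3213 CPM in Sibjeondaebo-tang and 2897 to 3276 CPM in Palmul-tang.

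The 15 secreted and matrix genes were also all below 0, with a median of −0.18 and 11 at an unadjusted p under 0.05, and none was called. VEGFA, the angiogenic growth factor, had 143, 140 and 134 CPM in Sibjeondaebo-tang and 156, 157 and 160 CPM in Palmul-tang (−0.18 ± 0.0537, adjusted p = 0.516). The groups did not overlap, without a call. The same held for the hormone gene EPO (−0.29), the lipase inhibitor ANGPTL4 (−0.45), the collagen cross-linking enzyme LOX (−0.24), STC2 (−0.17) and IGFBP1 (−0.43). P4HA1, PLOD1 and PLOD2, which modify collagen, overlapped between the groups.

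Among the 8 tested genes of mitochondria and cell survival, 6 were below 0 and none was called. BNIP3, a receptor for the autophagy of mitochondria, came near the threshold with 163, 141 and 142 CPM in Sibjeondaebo-tang and 194, 175 and 180 CPM in Palmul-tang (−0.30 ± 0.0610, adjusted p = 0.0633). DDIT4, a brake on mTOR signalling, had 60.2, 49.3 and 49.2 CPM in Sibjeondaebo-tang and 73.3, 69.8 and 64.4 CPM in Palmul-tang (−0.38 ± 0.0879, adjusted p = 0.181). In both, and in BNIP3L, every Sibjeondaebo-tang library was lower. HIGD1A overlapped. NDUFA4L2, at under 1 CPM in all 6 libraries, carried the highest fold change of the 81, at 0.47.

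Of the 24 tested chromatin, signalling and other targets, 21 were below 0 with a median of −0.21, and BHLHE40 was called. KDM3A, a histone demethylase, had 63.0, 59.3 and 57.1 CPM in Sibjeondaebo-tang and 71.5, 69.7 and 70.1 CPM in Palmul-tang (−0.24 ± 0.0470, adjusted p = 0.0565). It stood next after the 5 called genes among all 16083, followed by BNIP3. NDRG1, a hypoxia- and stress-induced gene, had 72.1, 57.6 and 59.4 CPM in Sibjeondaebo-tang and 81.8, 78.9 and 84.2 CPM in Palmul-tang (−0.37 ± 0.0865, adjusted p = 0.196).
ANKZF1, a factor of ribosome quality control, was at −0.36 ± 0.0810 (adjusted p = 0.117), and MIR210HG, the host transcript of a hypoxia-induced microRNA, was at −0.70 ± 0.172 (adjusted p = 0.196) from 1.53 to 2.50 CPM in Sibjeondaebo-tang and 3.00 to 3.68 CPM in Palmul-tang. KDM3A, NDRG1, ANKZF1 and MIR210HG all separated the groups. CA9, a surface carbonic anhydrase often used as a hypoxia marker, did not, with 5.45, 3.37 and 3.10 CPM in Sibjeondaebo-tang and 6.03, 4.67 and 5.31 CPM in Palmul-tang.

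**Figure D2:**
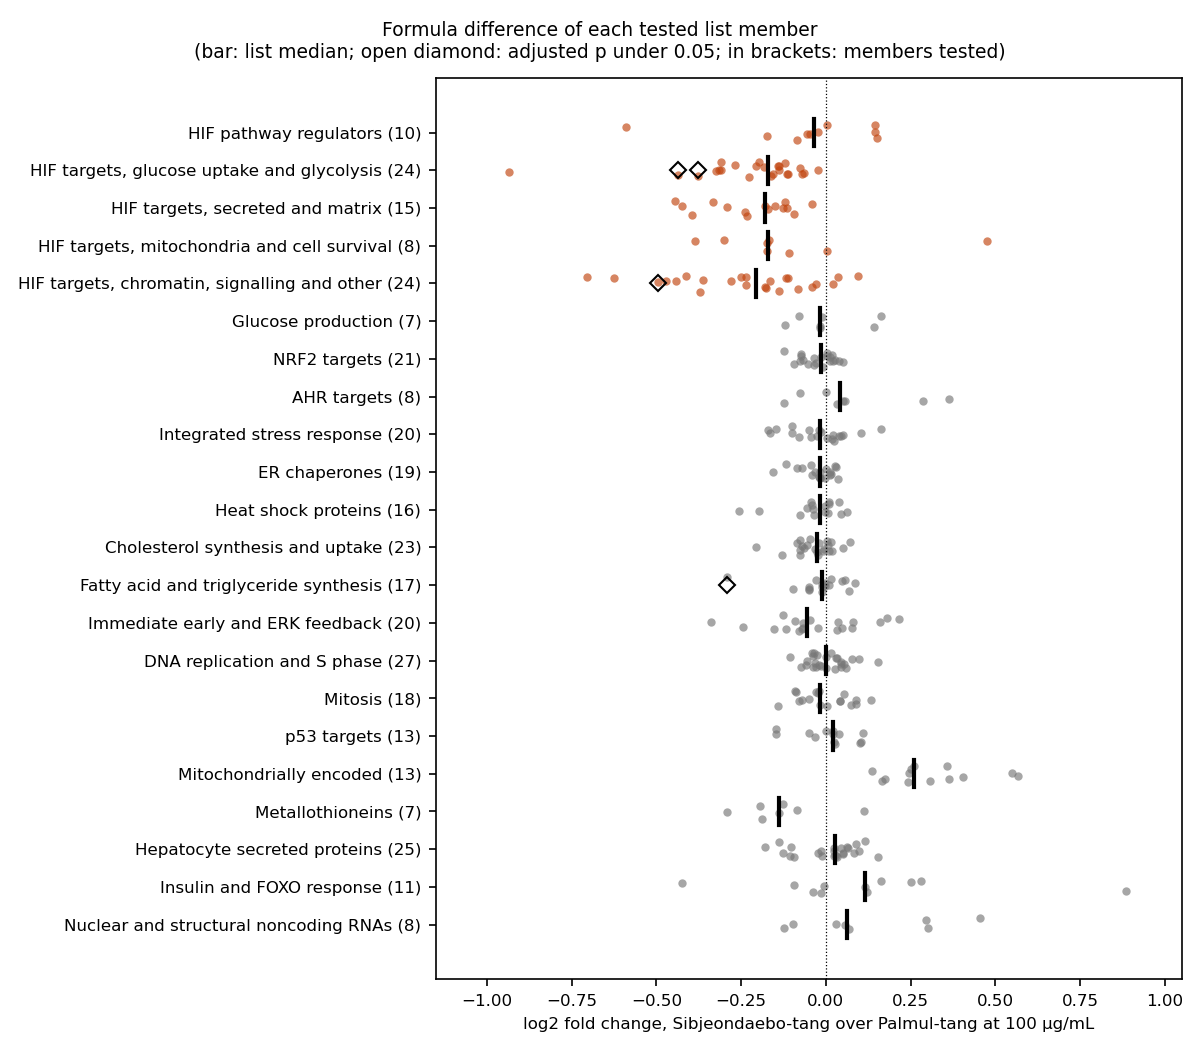
Log2 fold change of Sibjeondaebo-tang over Palmul-tang at 100 µg/mL (horizontal axis) for each tested member of the gene lists (rows, number tested in brackets); red points are hypoxia-type lists, grey points others, vertical bars list medians and open diamonds the called genes. The 4 target lists centre between −0.17 and −0.21, the mitochondrially encoded genes at 0.26, and most other lists near 0.

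Outside the hypoxia-type lists, 1 list member was called. No member of the lists of NRF2 targets (21 tested, median log2 −0.01), AHR targets (8, 0.04), integrated stress response genes (20, −0.02), ER chaperones (19, −0.02), heat shock proteins (16, −0.02), cholesterol synthesis genes (23, −0.03), DNA replication genes (27, −0.0011) or mitosis genes (18, −0.02) was called. Glucose production genes (7, −0.02), p53 targets (13, 0.02), immediate early genes (20, −0.06), hepatocyte secreted proteins (25, 0.03), insulin and FOXO response genes (11, 0.12), metallothioneins (7, −0.14) and nuclear noncoding RNAs (8, 0.06) had no call either. Of the 17 fatty acid and triglyceride genes, PLIN2 alone was called, and their median was −0.01. CYP1A1, the xenobiotic-metabolising target of the aryl hydrocarbon receptor, had 37.6, 37.6 and 40.5 CPM in Sibjeondaebo-tang and 37.8, 35.9 and 37.4 CPM in Palmul-tang. The groups overlapped, and the 95% interval of its log2 fold change ran from −0.11 to 0.22 around 0.06 (adjusted p = 0.934).

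The 13 mitochondrially encoded genes lay on the other side of 0 from most hypoxia-type genes, all above it with a median of 0.26, and none was called. MT-ATP6, a subunit of the ATP synthase, was at 0.40 ± 0.142 (adjusted p = 0.693), and 5 of the 13 had an unadjusted p under 0.05. Read apart from the list of 13, the percent of counts from mitochondrial genes was 15.7%, 18.5% and 19.7% in Sibjeondaebo-tang libraries. In Palmul-tang libraries it was 14.9%, 14.9% and 16.9%. The difference of 2.40 percentage points had an exact two-sided permutation p of 0.2, where 3 against 3 libraries cannot go below 0.1. With mitochondrial genes left out of the fit, an alternative chosen after seeing the data, 6 genes were called, 4 of them hypoxia-type, and the hypoxia-type median was −0.17.

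The libraries within a group did not behave alike. Set against the mean of the 3 Palmul-tang libraries, the median log2 level of the 81 hypoxia-type genes was −0.07, −0.20 and −0.26 in Sibjeondaebo-tang replicates 1, 2 and 3, and 0.04, −0.02 and −0.03 in Palmul-tang replicates 1, 2 and 3. Sibjeondaebo-tang replicate 1 thus lay nearest to Palmul-tang, and it was the highest of its group for 66 of the 81 genes. It lay below all Palmul-tang libraries for 36 genes, against 62 for replicate 2 and 65 for replicate 3. Palmul-tang replicate 1 was likewise the highest of its group for 48 genes. Sibjeondaebo-tang replicate 1 also had the lowest mitochondrial share of its group, at 15.7%, and replicate 3 the highest share and the lowest hypoxia-type median. The part of the mitochondrial share in the hypoxia-type levels was not tested. The fit without mitochondrial genes only drops those genes, and does not set the share of a library against its hypoxia-type levels. Without Sibjeondaebo-tang replicate 1, 17 hypoxia-type genes were called and their median was −0.22. Without Sibjeondaebo-tang replicate 3, 2 were called and the median was −0.13.

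**Figure D3:**
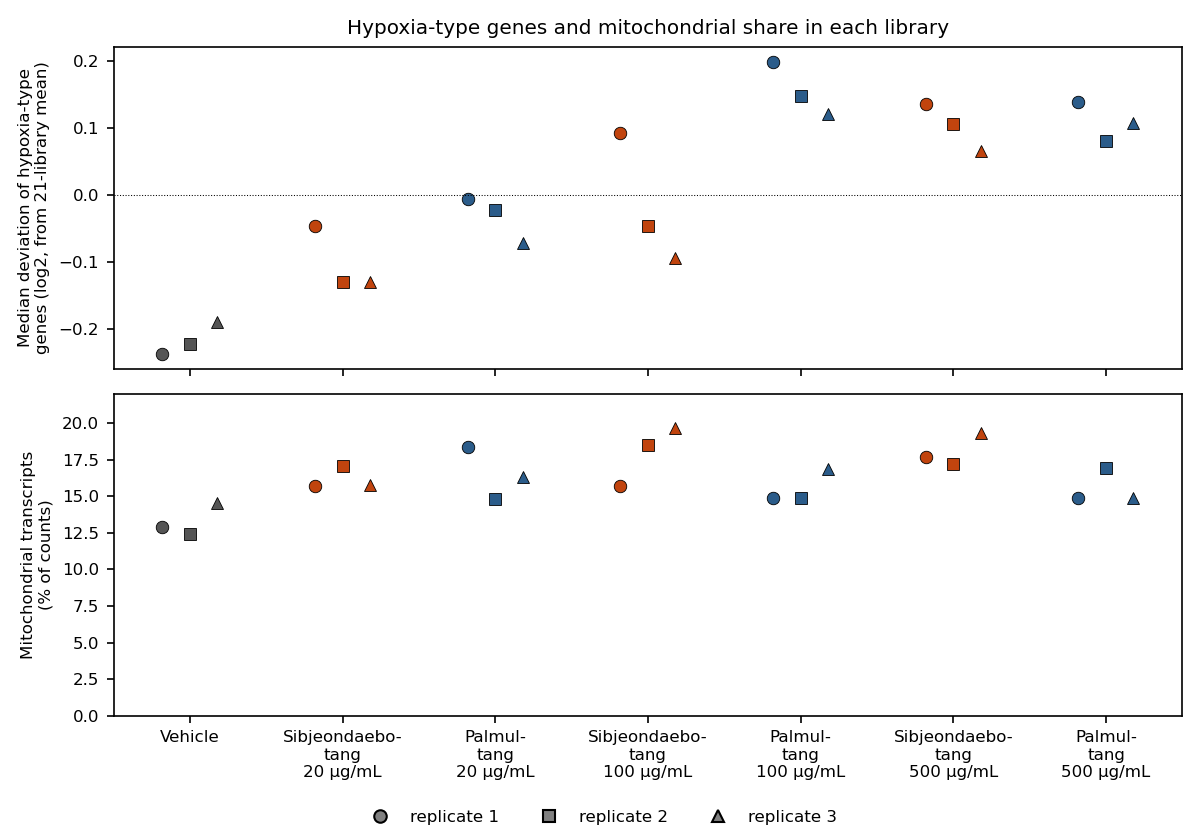
Upper panel: median deviation of the 81 hypoxia-type genes in each of 21 libraries from the mean of these libraries (log2); lower panel: percent of counts from mitochondrial genes; groups run from vehicle through 20, 100 and 500 µg/mL, and symbols mark replicates. Palmul-tang at 100 µg/mL lies at 0.12 to 0.20, while Sibjeondaebo-tang at 100 µg/mL spreads from −0.09 to 0.09.

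In every group of these 2 formulas, replicate 1 was the highest library for more of the 81 genes than replicate 2 or replicate 3. It led in 50 of 81 genes in Sibjeondaebo-tang and 35 in Palmul-tang at 20 µg/mL, and in 41 in Sibjeondaebo-tang and 39 in Palmul-tang at 500 µg/mL. Among the vehicle libraries it led in 17, and replicate 3 led in 36. What the replicate number stands for is not given in the labels.

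The same 2 formulas were compared at the other doses, in other libraries. At 20 µg/mL no gene was called by edgeR (0% of those tested, with 338 or 2.1% at an unadjusted p under 0.05 and 0 called by DESeq2). The median of the hypoxia-type genes there was −0.07, and 60 of 81 were below 0, against 0.0012 and 49.2% below 0 over all tested genes. At 500 µg/mL 1041 genes were called (6.47% of those tested), 282 higher (1.75%) and 759 lower (4.72%) with Sibjeondaebo-tang. The hypoxia-type median there was 0.028, beside 0.026 over all tested genes. Of the hypoxia-type genes, VEGFA, WSB1, ANKZF1, MIR210HG and ENO2 were lower there and PGM1 was higher, while PDK1, BHLHE40 and PFKFB4 were not called.

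Across the doses of Sibjeondaebo-tang, PDK1 averaged 42.4 ± 1.80 CPM at 20, 49.5 ± 2.46 CPM at 100 and 54.8 ± 3.50 CPM at 500 µg/mL (SD, n = 3). In Palmul-tang it averaged 46.1 ± 1.303, 64.3 ± 1.35 and 57.3 ± 2.44 CPM at these doses, and in vehicle 33.8 ± 0.115 CPM. Its Palmul-tang level was thus highest at the medium dose, and its Sibjeondaebo-tang level at the high dose.

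BHLHE40 averaged 51.8 ± 3.89, 62.8 ± 5.28 and 64.9 ± 2.77 CPM across the doses of Sibjeondaebo-tang and 64.8 ± 4.72, 88.5 ± 6.14 and 71.0 ± 3.87 CPM across those of Palmul-tang, with 37.0 ± 2.65 CPM in vehicle. PFKFB4 averaged 26.0 ± 1.22, 28.98 ± 4.73 and 32.3 ± 2.28 CPM in Sibjeondaebo-tang, 29.7 ± 2.31, 39.2 ± 0.632 and 33.0 ± 1.44 CPM in Palmul-tang and 20.5 ± 0.751 CPM in vehicle. PLIN2 averaged 245 ± 12.9, 279 ± 23.3 and 319 ± 11.5 CPM in Sibjeondaebo-tang, 257 ± 2.29, 341 ± 17.2 and 318 ± 4.84 CPM in Palmul-tang and 197 ± 5.17 CPM in vehicle. All 3 repeat the order of PDK1, with the mean of the medium Palmul-tang libraries above that at both other doses. TMCC1 did not: its mean was highest at 500 µg/mL for both formulas, at 83.9 ± 5.36 CPM in Sibjeondaebo-tang and 93.6 ± 6.43 CPM in Palmul-tang. The called genes were picked by their difference at the medium dose, which favours a wide gap and a high Palmul-tang mean there.

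**Figure D4:**
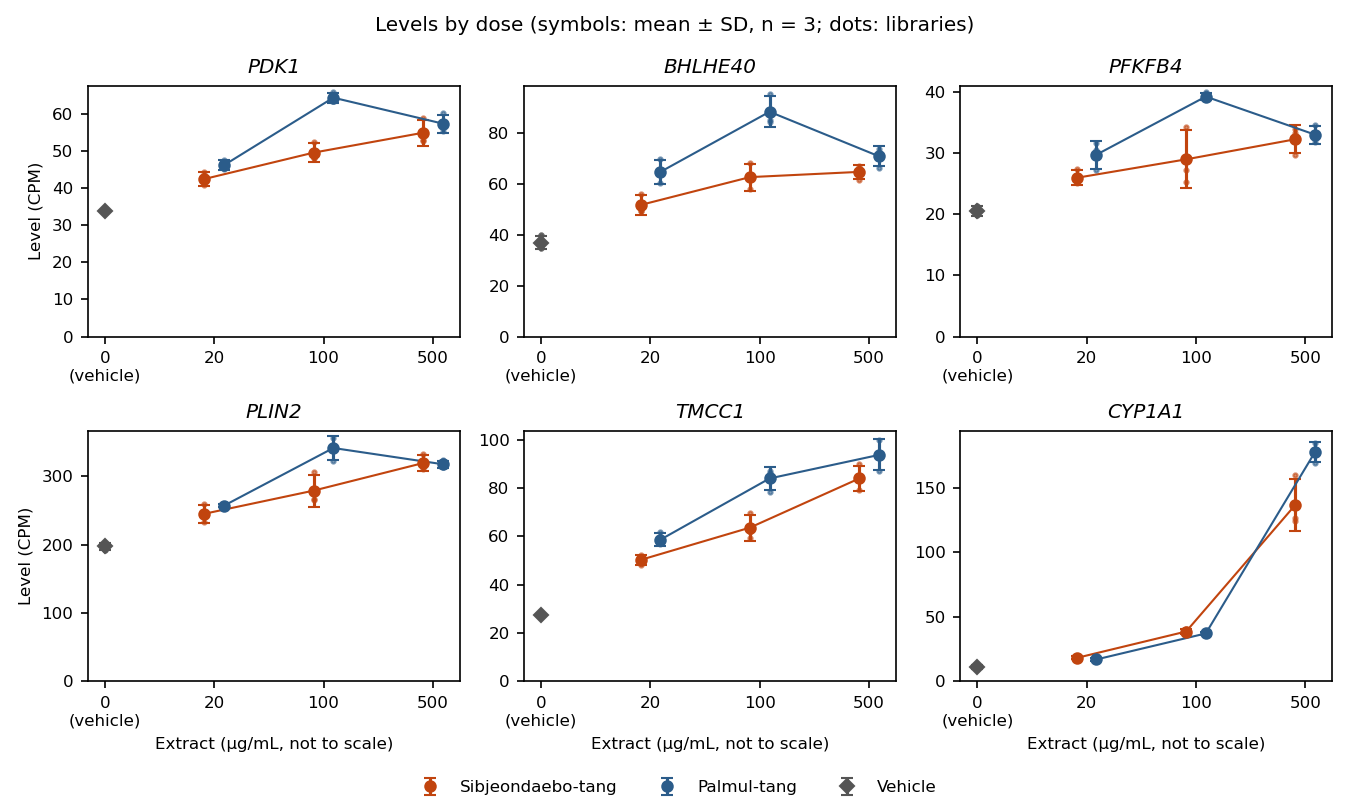
Levels in CPM (vertical axes, from 0) of the 5 called genes and CYP1A1 against extract dose (0, 20, 100 and 500 µg/mL, evenly spaced and not to scale); symbols give the mean ± SD of 3 libraries, small dots the libraries. For PDK1, BHLHE40, PFKFB4 and PLIN2 the formulas lie furthest apart at 100 µg/mL, while for CYP1A1 they do so at 500 µg/mL. The 5 called genes were picked by their call at 100 µg/mL, which favours a wide gap at that dose.

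The change of the formula difference between doses was tested as an interaction in the same fit. From the high to the medium dose 286 genes were called (1.78% of those tested), 263 with a higher and 23 with a lower value of the medium minus the high difference. The hypoxia-type genes had 4 lower and 1 higher, with a median of −0.19, beside 0.143% lower and 1.64% higher over all genes. The 4 were PDK1 (−0.31 ± 0.0723, adjusted p = 0.0161), BHLHE40 (−0.36 ± 0.0968, adjusted p = 0.0479), PFKFB4 (−0.40 ± 0.107, adjusted p = 0.0482) and PGM1 (−0.28 ± 0.0613, adjusted p = 0.00861), an enzyme of glycogen metabolism. WSB1, which encodes a ubiquitin ligase adaptor, was the 1 higher (0.34 ± 0.0869, adjusted p = 0.0322). BHLHE40 kept this call in 5 of 18 alternatives, PFKFB4 in 6, WSB1 in 12, PDK1 in 13 and PGM1 in 16. PDK1, BHLHE40 and PFKFB4 had already been picked as called lower at the medium dose, and that choice favours a value below 0. Between the medium and the low dose edgeR called no gene (0%, with 428 or 2.66% at an unadjusted p under 0.05 and 0 called by DESeq2), and the hypoxia-type median was −0.11.

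Many hypoxia-type genes were higher than vehicle with either formula. The comparisons with vehicle share the vehicle libraries, so their values are given side by side only. Sibjeondaebo-tang at 100 µg/mL had 40 of the 81 called higher and 1 lower, beside 15.3% of all tested genes higher and 14.8% lower, with a median log2 fold change of 0.24. Palmul-tang at 100 µg/mL had 48 higher and 1 lower, beside 11.6% of all tested genes higher and 10.8% lower, with a median of 0.33. PDK1 was at 0.55 ± 0.0527 over vehicle with Sibjeondaebo-tang and 0.93 ± 0.0524 with Palmul-tang, and BHLHE40 was at 0.76 ± 0.0710 with Sibjeondaebo-tang and 1.26 ± 0.0705 with Palmul-tang. PFKFB3 was at 1.501 ± 0.232 with Sibjeondaebo-tang and 2.44 ± 0.217 with Palmul-tang. All 6 of these values were called. The 24 genes of glucose uptake and glycolysis had a median of 0.06 over vehicle with Sibjeondaebo-tang and 0.20 with Palmul-tang.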

How the data were processed

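RNA of 30 HepG2 libraries in 13 groups was sequenced as 100-base read pairs from directional libraries, per the labels' protocols. The authors deposited expected counts per gene for 60675 Ensembl genes. The submitters' processing notes name RSEM 1.3.3, STAR 2.7.3a, Trim Galore 0.6.5 and FastQC 0.11.9, and hg38 and GRCh38 as builds. For the annotation, no release is given in the sources used here. These deposited expected counts share reads among transcripts (8.56% of values were not whole), so close paralogs are divided by estimate. The table held 240 columns of no sample used here, which were not read.

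Expected counts were rounded. edgeR 4.0.16 (R 4.3.3) fitted 27 libraries, which make up the 10 replicated groups, so that the compared groups share one estimate of the spread (17 residual degrees of freedom). It used filterByExpr at its defaults (minimum count 10, total 15), TMM factors, a robust quasi-likelihood fit, two-sided tests and Benjamini-Hochberg adjustment over all 16083 genes, threshold 0.05. SE is the absolute log2 fold change over the square root of F. Symbols matched 41209 of 60675 identifiers, and gene positions are from GENCODE 29. The code was tested on simulated counts with planted changes in this comparison. It called 42% of the planted 1.2-fold changes and 94% of the 1.5-fold changes, so small differences were often missed there. Replicate pairs of the 6 libraries differed beyond counting noise, by a factor of 1.77 to 2.86, and were kept as separate samples.

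The members and gene lists were chosen with earlier results of these data known. Named genes are all called genes, the 12 hypoxia-type genes with the smallest p, 6 fixed genes and examples from each list; others were named after their values were seen. Not every gene that this rule takes is described. Alternatives were DESeq2 1.42.0, median-ratio factors, no filter, the 6 libraries alone, the replicate number as a block, an offset for GC content and length (15977 genes with values), each library left out, and, added later, a fit without mitochondrial genes.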

Additional observations from a re-analysis of the deposited data

Results flagged for a closer look

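The difference between the formulas itself differed between the medium and the high dose in 286 genes, by the interaction term of the edgeR fit with adjustment over all genes. The 9 given here are those among the hypoxia-type genes and the genes taken by the naming rule. The values are the log2 difference (Sibjeondaebo-tang over Palmul-tang) at 100 µg/mL minus that at 500 µg/mL. Those below 0 were PFKFB4 (−0.40), BHLHE40 (−0.36), PDK1 (−0.31), PLIN2 (−0.30) and PGM1 (−0.28). In the first 4 the formulas were apart at the medium dose, at −0.43, −0.49, −0.38 and −0.29, and at −0.04, −0.13, −0.06 and 0.01 at the high dose. These 4 were named for their call at the medium dose, which favours such a pattern. PGM1 was instead higher with Sibjeondaebo-tang at the high dose (0.21), against −0.08 at the medium dose.

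Those above 0 were NEAT1 (0.79), CYP1A1 (0.44), WSB1 (0.34) and ABCC3 (0.30), and each was lower with Sibjeondaebo-tang at the high dose. NEAT1, a nuclear noncoding RNA, had 143, 137 and 122 CPM in Sibjeondaebo-tang and 249, 246 and 247 CPM in Palmul-tang at 500 µg/mL, and 234, 240 and 222 CPM in Sibjeondaebo-tang and 246, 250 and 248 CPM in Palmul-tang at 100 µg/mL. It was called in all 18 alternatives. The adjusted p of the other 8 passed 0.05 in at least 2 of the 18, reaching 0.248 for PFKFB4, 0.226 for BHLHE40, 0.135 for PLIN2, 0.104 for WSB1, 0.0931 for CYP1A1, 0.0827 for PDK1, 0.0740 for PGM1 and 0.0704 for ABCC3.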

How the results depend on the processing

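The hypoxia-type genes kept a median between −0.13 and −0.22 and between 69 and 73 members below 0 in every alternative run, and no result reversed. Against 5 called genes, 3 of them hypoxia-type and 1 in the other lists, DESeq2 called 26 (11 hypoxia-type), no low-count filter 168 (18 hypoxia-type and 13 in other lists), a GC and length offset 8 (5 hypoxia-type) and the 6 libraries alone 7, with 0 in other lists. Without a filter the low dose gave 72 calls, the medium minus high difference 553 and the medium minus low difference 74. The cause of these shifts was not tested. With 1 library left out the count ran from 2 to 30, the hypoxia-type count from 2 to 17 and that of other lists from 0 to 1. The high dose gave 545 (without Sibjeondaebo-tang high replicate 3) to 925, with 675 without Palmul-tang high replicate 1. The medium minus high difference gave 187 (without Sibjeondaebo-tang high replicate 3) to 306, with 189 without Palmul-tang high replicate 2. Palmul-tang medium against vehicle gave 2309 (without Palmul-tang medium replicate 3) to 3424, and the mitochondrial difference was 1.54 to 3.52 percentage points.

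Same-numbered medium libraries correlated by 0.057, 0.0039 and 0.036 in their deviations, and differently numbered ones by −0.051 to 0.018. Replicates 1 and 3 correlated best with their own number, and replicate 2 did not. All these values were small, and the numbers were not taken to pair samples. Small correlations over all tested genes do not exclude pairing. Replicate 1 was the highest medium library for 66 hypoxia-type genes in Sibjeondaebo-tang and 48 in Palmul-tang. Whether the numbers pair samples was not tested for the hypoxia-type genes alone. With the replicate block 26 genes were called (10 hypoxia-type), all lower. With the replicate block on the 6 libraries alone 124 were called (24 hypoxia-type, 9 in other lists), 33 higher and 91 lower. Sign flips of the mitochondrial share within pairs gave an exact p of 0.25, the smallest possible. Counting error is largest, relative to the level, in the lowest genes, such as NDUFA4L2 at under 1 CPM; its part in the spread of any gene was not tested.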
